A study of Homo sapiens with 8 samples.

Results

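The 38 genes described here encode 19 cytosolic aminoacyl-tRNA synthetases or synthetase subunits, 16 mitochondrial synthetases and 3 auxiliary proteins of the multisynthetase complex, AIMP1, AIMP2 and EEF1E1. They were taken from a list of gene symbols by what they encode, with no threshold on a measured value, although earlier results of these data were known when the list was made. The list does not hold every member of the family. All 38 were found among the 22627 gene symbols of the deposited tables. All 38 also averaged 1 FPKM or more across the 4 groups, as did 11052 genes in total, but EEF1E1 did so through a single group. Members listed at 0 in a group numbered 2, AIMP2 and EEF1E1.

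An aminoacyl-tRNA synthetase joins an amino acid to its matching tRNAs and so supplies the ribosome with its substrates. The cytosol and the mitochondria use largely separate enzymes, all encoded in the nucleus, while GARS1 and KARS1 each serve both compartments. In human cells several cytosolic enzymes are held together in the multisynthetase complex by AIMP1, AIMP2 and EEF1E1. A number of synthetase genes belong to the amino acid response driven by the transcription factor ATF4, and WARS1 is a long-known target of interferon gamma.

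RNA was sequenced from NB4, a cell line of human acute promyelocytic leukaemia with the PML-RARA fusion, which differentiates in the granulocytic direction with all-trans retinoic acid (ATRA). The 4 groups were shTFEB cells with ATRA, shScr cells with ATRA, shTFEB cells with vehicle and shScr cells with vehicle. The hairpins were delivered by lentivirus, shTFEB being directed against the transcription factor TFEB and shScr carrying a scrambled sequence. ATRA was given at 1 µM and the vehicle was ethanol, both for 72 h. The labels name 2 biological replicates per group, 8 samples in all. Untransduced NB4 cells, which the design also names, were not analysed here.

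The deposited tables give 1 FPKM (fragment counts scaled for model length and for library size) per transcript model and group. Models were summed per gene. No spread between samples could be computed, so no difference below has a replicate check, an error or a p-value. Differences are given as log2 ratios after adding 1 FPKM to both values. The words rose and fell are kept for genes whose ratio reached 1 in size. This 2-fold mark is a mark of size and not a test. Fold values are ratios of the FPKM themselves.

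TFEB, the targeted gene, stood at 8.44 FPKM in shTFEB cells and 19.4 FPKM in shScr cells under ATRA. Under vehicle it stood at 1.35 FPKM in the group labelled shTFEB and 1.20 FPKM in shScr cells, so its label is not borne out by TFEB mRNA there. Depth relative to shScr vehicle, read from the spacing of the lowest values, lay between 0.911 and 1.17. All 12 granulocyte maturation markers rose with ATRA in both lines and 6 of 7 compared promyelocyte markers fell. The granulocyte markers summed to 2344 and 4705 FPKM in the ATRA groups of shTFEB and shScr cells and to 75.5 and 84.4 FPKM in their vehicle groups, and the promyelocyte markers to 1112 and 902 FPKM with ATRA and 4420 and 5599 FPKM with vehicle. The summed level of the 8 lymphoid markers was 12.4 to 21.0 FPKM, with MS4A1 at 0 in every group, and its 3 compared genes moved apart. CD79A rose, with 19.7 and 18.5 FPKM in the ATRA groups of shTFEB and shScr cells and 2.09 and 2.41 FPKM in their vehicle groups. CD79B fell, with 0.208 and 0.551 FPKM with ATRA and 7.19 and 8.85 FPKM with vehicle, and CD3D fell as well (log2 ratios −1.44 and −1.65). The 8 erythroid and megakaryocytic markers summed to 0.313 to 2.81 FPKM, with HBA1, HBB, GP9 and PF4 among those at 0 in every group. Their 1 compared gene, ITGA2B, had 2.75 and 0.521 FPKM in the ATRA groups of shTFEB and shScr cells and 0.770 and 0.177 FPKM in their vehicle groups. It rose in shTFEB cells (1.08) and not in shScr cells (0.37), and shTFEB over shScr under ATRA was 1.30. The 8 genes listed as non-blood markers summed to 29.8 to 36.3 FPKM, KRT18 being the largest term in each group. Their 4 compared genes moved apart. KRT8 rose, with 4.71 and 3.32 FPKM in the ATRA groups of shTFEB and shScr cells and 0 in both vehicle groups. PECAM1 rose as well, with 8.23 and 8.59 FPKM with ATRA and 2.25 and 1.56 FPKM with vehicle. EPCAM and KRT18 stood lower with ATRA in both lines, short of the mark. Whether each of these genes is absent from blood cells was not tested. The part of maturation, or of any change in cell makeup, in the synthetase values was not tested. In bulk RNA, fewer cells of a type and less RNA per cell cannot be told apart.

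Cytosolic synthetase mRNAs were more abundant than mitochondrial ones in every group. Per gene, the 19 cytosolic members had a median of 41.0 FPKM in shTFEB ATRA, 32.3 FPKM in shScr ATRA, 65.4 FPKM in the vehicle group labelled shTFEB and 63.9 FPKM in shScr vehicle. The medians of the 16 mitochondrial members were 8.60, 7.19, 13.9 and 13.0 FPKM in the same order of groups. GARS1 was the most abundant member in shScr vehicle (116 FPKM) and KARS1 in the vehicle group labelled shTFEB (125 FPKM), whereas WARS1 held first place in both ATRA groups. Among mitochondrial enzymes IARS2 was the most abundant in every group (26.4 to 52.0 FPKM) and the prolyl enzyme PARS2 the least (1.80 to 4.57 FPKM).

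**Figure D1:**
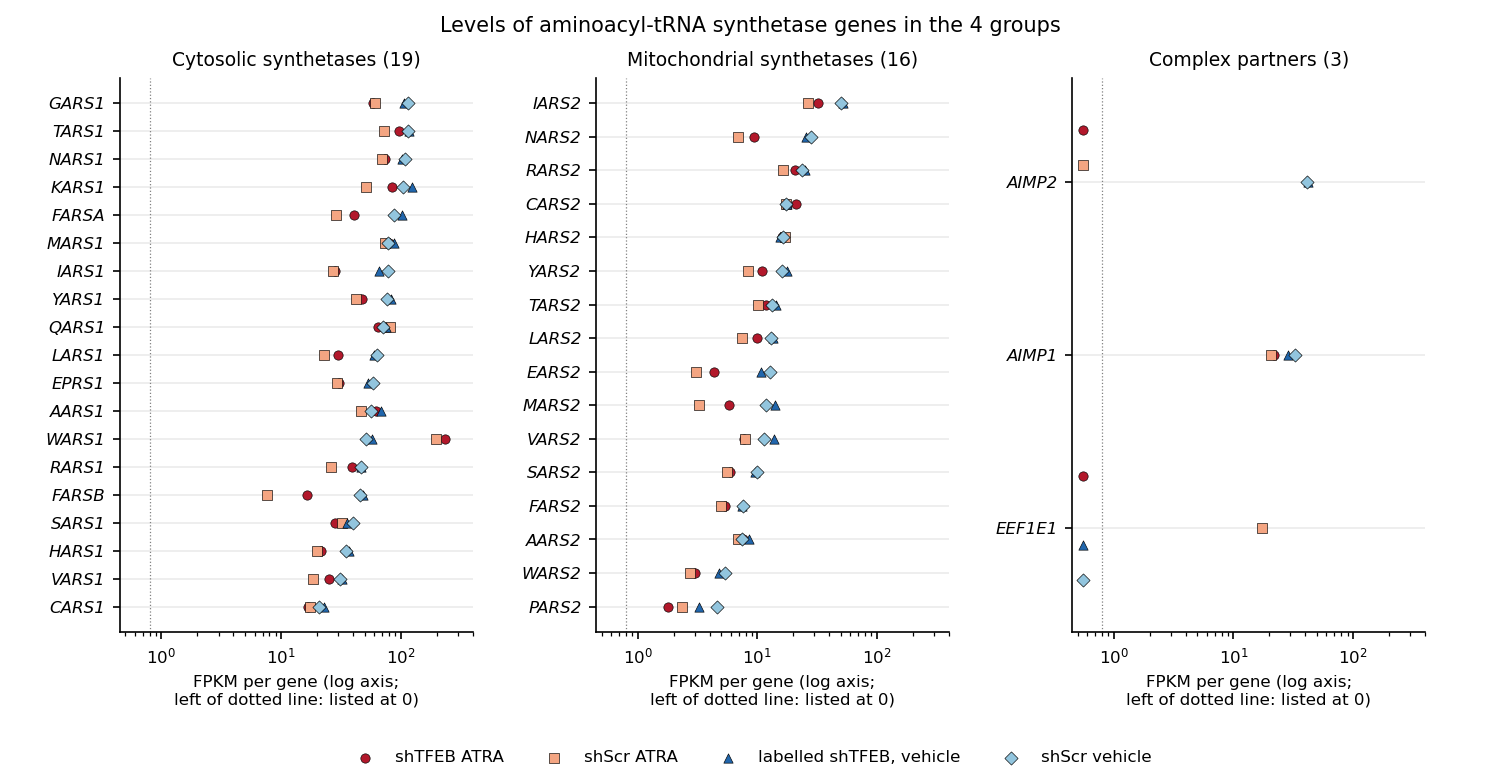
Levels of the 38 genes in the 4 groups, as FPKM per gene on a log axis, with 1 point per group and no replicate error in the tables. Points left of the dotted line are listed at 0. WARS1 is the cytosolic gene whose 2 ATRA points (237 and 197 FPKM) lie right of its vehicle points (58.0 and 51.4 FPKM), while most other genes have their ATRA points on the left.

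With ATRA most synthetase mRNAs stood lower than with vehicle, and WARS1 stood out in the other direction. In shTFEB cells 1 of 38 members rose, WARS1, and 7 fell, against 11.5% of all compared genes that rose and 10.5% that fell. In shScr cells 2 members rose, WARS1 and EEF1E1, and 9 fell, against 12.5% and 15.2% of all genes. The log2 ratio was below 0 for 34 of 38 members in either line, where 57.6% of all genes in shTFEB cells and 57.4% in shScr cells were below 0. The median over the members was −0.50 in shTFEB cells and −0.74 in shScr cells, beside −0.13 and −0.15 over all genes. Median-of-ratios rescaling brought both all-gene medians to 0. The all-gene shares then became 13.0% higher and 8.02% lower in shTFEB cells, and 14.5% higher and 11.4% lower in shScr cells. Relative to the all-gene median the members stood at −0.38 in shTFEB cells and −0.59 in shScr cells. After that rescaling 33 members were still below 0 in shTFEB cells and 31 in shScr cells.

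**Figure D2:**
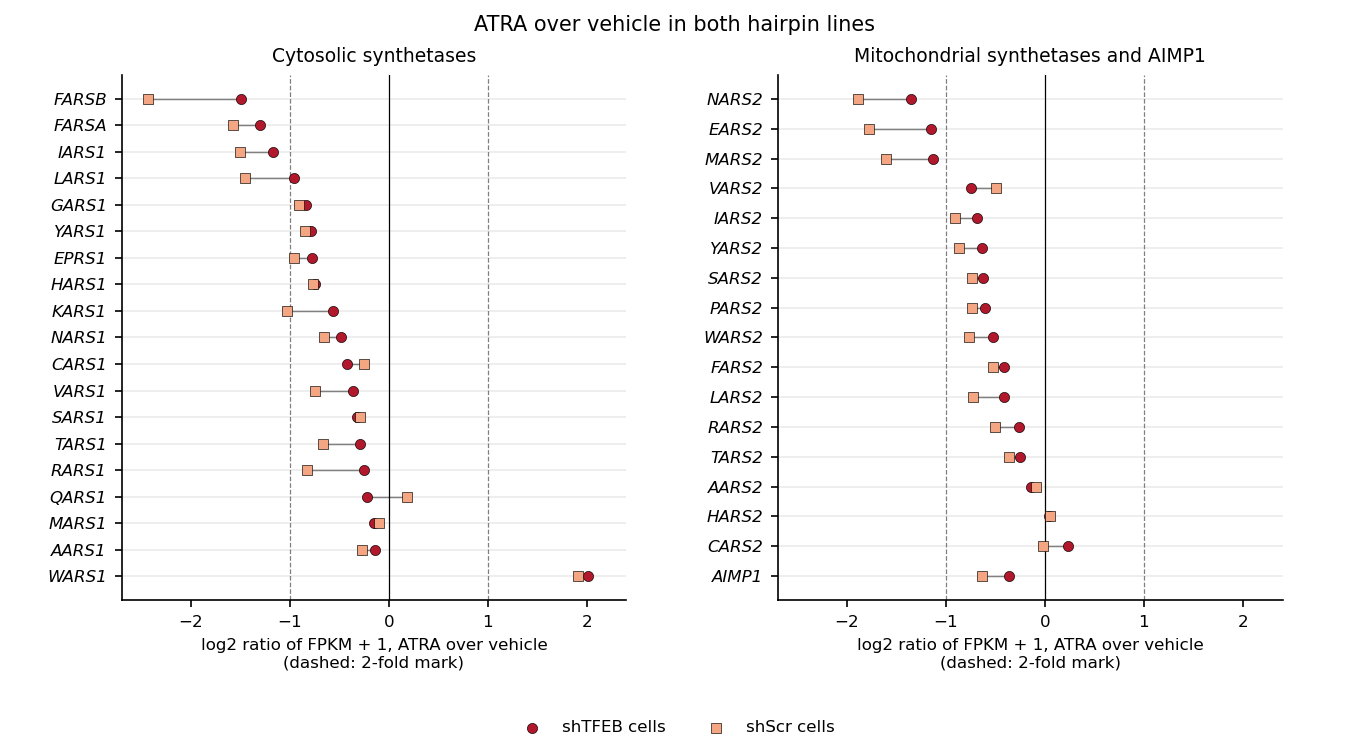
Log2 ratio of FPKM + 1, ATRA over vehicle, for the 36 members above 0 in every group, with shTFEB cells as circles and shScr cells as squares. Dashed lines show the 2-fold mark. WARS1 lies near 2 in both lines, and FARSB, FARSA, IARS1, NARS2, EARS2 and MARS2 lie below −1 in both.

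WARS1, the cytosolic tryptophanyl-tRNA synthetase, was the one enzyme that rose. It stood at 237 FPKM in shTFEB ATRA, 197 FPKM in shScr ATRA, 58.0 FPKM in the vehicle group labelled shTFEB and 51.4 FPKM in shScr vehicle. Both ATRA values thus lay far above both vehicle values, 4.08-fold in shTFEB cells (log2 ratio 2.01) and 3.83-fold in shScr cells (1.92). Its order among the 38 members was 1 in both ATRA groups, 12 in the vehicle group labelled shTFEB and 13 in shScr vehicle. The mitochondrial tryptophanyl enzyme WARS2 had no such course, with 3.01 and 2.75 FPKM in the ATRA groups of shTFEB and shScr cells and 4.78 and 5.37 FPKM in their vehicle groups.

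The WARS1 gene lies on the minus strand of hg19 chromosome 14 (100800125 to 100842680), and its 4 models begin at 2 positions, 753 bases apart. The 2 models from the downstream start, at position 100841927, summed to 116 FPKM in shTFEB ATRA, 98.0 FPKM in shScr ATRA, 14.1 FPKM in the vehicle group labelled shTFEB and 8.45 FPKM in shScr vehicle. The 2 models from the upstream start, at position 100842680, summed to 121, 98.7, 43.9 and 43.0 FPKM in that order. ATRA over vehicle was therefore 8.22-fold in shTFEB and 11.6-fold in shScr cells for the downstream start, and 2.76-fold and 2.30-fold for the upstream one. The downstream start gave 48.8% of the gene's FPKM in shTFEB ATRA and 49.8% in shScr ATRA, against 24.2% and 16.4% in the vehicle groups of shTFEB and shScr cells. These models share most exons, so the split between starts is the estimate of the authors' software and not a count of start sites.

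**Figure D3:**
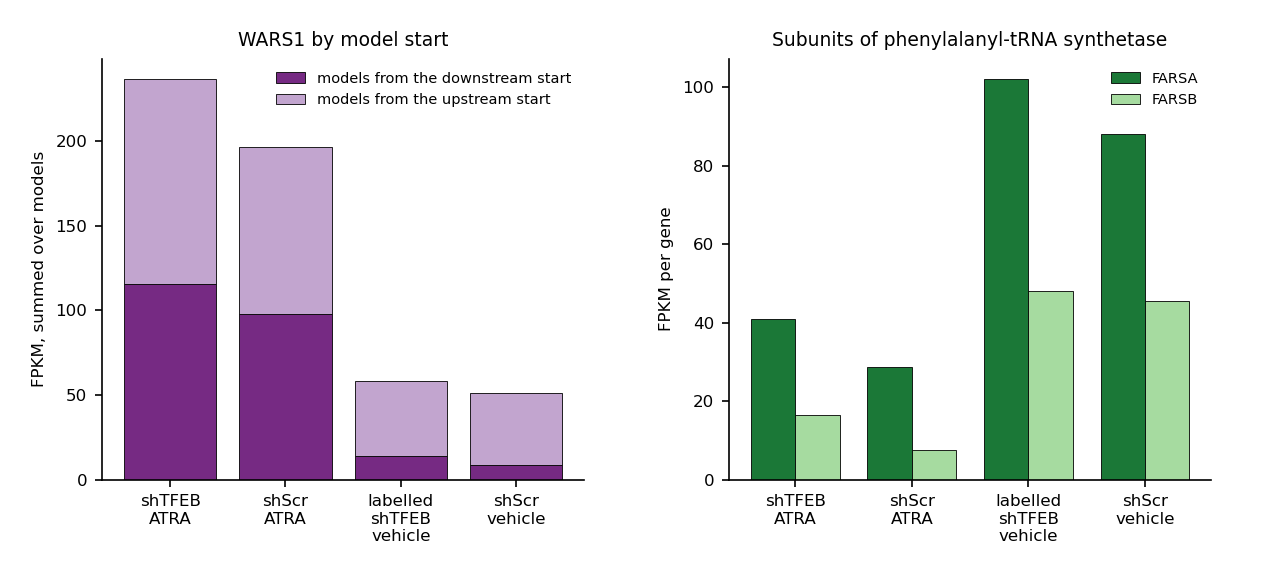
Left, WARS1 in FPKM stacked by the start of its models, and right, FARSA and FARSB in FPKM, for the 4 groups with 1 deposited value each. The downstream part of the WARS1 bars is 116 and 98.0 FPKM with ATRA and 14.1 and 8.45 FPKM with vehicle, and FARSB is lowest in shScr ATRA at 7.67 FPKM.

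The RefSeq promoter table (GRCh38.p14) holds windows of 250 bases before to 50 bases after a start for 33 of the 38 members, and none for AARS2, LARS1, VARS1, VARS2 and YARS1. WARS1 has 2 windows, at chr14:100376278-100376577 and chr14:100375298-100375597, both on the minus strand. The hg19 and GRCh38 positions were not matched to each other. The 2 windows lie further apart than the 753 bases between the model starts, so at least 1 window is not set on a model start. The windows were searched on both strands for 2 motifs of the interferon response, a gamma activated site written TTCNNNGAA and an interferon response element written GAAANNGAAA. The downstream window of WARS1 holds both and the upstream window holds neither. The first begins 142 bases and the second 55 bases before the RefSeq start of the downstream window. Their place relative to the start of the downstream models was not determined. TTCNNNGAA is found in 7.66% and GAAANNGAAA in 3.57% of all 35116 windows. Among the other members TTCNNNGAA occurs in CARS1, PARS2, TARS1 and WARS2 and GAAANNGAAA in EARS2, none of which rose with ATRA. A match is a stretch of letters and not a measured site. The stretch of the downstream window of WARS1 that spans both matches, shown because this gene runs against the rest of the family, is chr14:100375348-100375507 on the minus strand, with the matches in capitals:
WARS1: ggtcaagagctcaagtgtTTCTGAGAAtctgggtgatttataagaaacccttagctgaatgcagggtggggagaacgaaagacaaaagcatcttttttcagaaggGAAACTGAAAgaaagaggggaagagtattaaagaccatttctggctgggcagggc

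Other genes known to respond to interferon gamma gave a reading beside WARS1. Of 13 compared genes of that list, 11 rose and none fell with ATRA in shTFEB cells (median log2 ratio 2.50), and 7 rose and none fell in shScr cells (median 1.31). Of all genes 11.5% rose in shTFEB cells and 12.5% in shScr cells. GBP1, GBP4, GBP5 and SOCS1 averaged under 1 FPKM over the groups other than shTFEB ATRA, so they were compared only through the group where they stand highest. Of the other 9 genes, a split made after the values were seen, 7 rose in either line (medians 2.87 in shTFEB and 2.17 in shScr cells). The chemokine gene CXCL10 had 183 FPKM with ATRA and 0.530 FPKM with vehicle in shTFEB cells, and 176 and 0.508 FPKM in shScr cells. CXCL10 is among these 9, but it was compared only through its 2 ATRA groups, where it stands high. Between the ATRA groups 5 of the 13, and 3 of those 9, were past the mark and higher in shTFEB cells, against 2.67% of all genes. The peptide transporter gene TAP1 is among the 3, with 100.6 FPKM in shTFEB ATRA and 41.3 FPKM in shScr ATRA, whereas the ratio of WARS1 was 0.27.

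FARSA and FARSB encode the alpha and beta subunits of the cytosolic phenylalanyl-tRNA synthetase, and both fell. FARSB (hg19 chromosome 2, 223436162 to 223520827) had 16.5 FPKM in shTFEB ATRA, 7.67 FPKM in shScr ATRA, 48.1 FPKM in the vehicle group labelled shTFEB and 45.7 FPKM in shScr vehicle. That is 2.92-fold lower with ATRA in shTFEB cells (log2 ratio −1.49) and 5.95-fold lower in shScr cells (−2.43), the lowest ratio of a member above 0 in every group. FARSA had 41.0 and 28.8 FPKM in the ATRA groups of shTFEB and shScr cells, and 102 and 88.0 FPKM in their vehicle groups. Its log2 ratios were −1.30 in shTFEB and −1.58 in shScr cells. The level ratio of FARSA to FARSB was 2.49 in shTFEB ATRA, 3.76 in shScr ATRA, 2.12 in the vehicle group labelled shTFEB and 1.93 in shScr vehicle, so the subunit mRNAs were furthest apart in shScr ATRA. The single-chain mitochondrial enzyme FARS2 stayed short of the mark, with −0.42 in shTFEB and −0.52 in shScr cells.

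Among the 7 synthetase genes of the multisynthetase complex on the list, IARS1 fell in both lines and LARS1 and KARS1 in shScr cells. Counted with AIMP1, which did not pass the mark, these falls are 12.5% of 8 genes in shTFEB cells and 37.5% in shScr cells. Of all genes 10.5% and 15.2% fell. IARS1, the isoleucyl enzyme, had 28.5 and 27.1 FPKM in the ATRA groups of shTFEB and shScr cells and 65.4 and 78.4 FPKM in their vehicle groups, with log2 ratios of −1.17 and −1.50. LARS1, the leucyl enzyme also described as a leucine sensor of the mTORC1 pathway, had 30.2 and 22.7 FPKM with ATRA and 59.6 and 63.9 FPKM with vehicle. Its ratio of −1.45 in shScr cells passed the mark, and −0.96 in shTFEB cells lay just short of it.

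KARS1, which makes both the cytosolic and the mitochondrial lysyl enzyme by alternative splicing, had 84.5 and 51.2 FPKM in the ATRA groups of shTFEB and shScr cells and 125 and 105 FPKM in their vehicle groups. Its log2 ratio in shScr cells, −1.03, is just inside the mark, and 3 alternatives, both rescalings among them, took it outside (−0.85 at the nearest to 0), while shTFEB cells stood at −0.56. The longer of the 2 KARS1 models made up 17.0% and 20.2% of the gene in the ATRA groups and 20.6% and 18.2% in the vehicle groups, so the mix of models hardly moved. EPRS1, which joins the glutamyl and prolyl enzymes in one chain, had ratios of −0.78 in shTFEB and −0.96 in shScr cells, the second just outside the mark. RARS1 had −0.25 and −0.83. MARS1 had −0.15 and −0.10, with 79.7 and 73.4 FPKM with ATRA and 88.7 and 78.8 FPKM with vehicle. QARS1, the glutaminyl enzyme, was the cytosolic enzyme other than WARS1 with a ratio above 0, at 0.18 in shScr cells, and it stood at −0.22 in shTFEB cells.

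The 3 auxiliary proteins of the complex could be read in part. AIMP1, whose cleaved product is a secreted cytokine, had 22.0 and 20.7 FPKM in the ATRA groups of shTFEB and shScr cells and 28.6 and 32.8 FPKM in their vehicle groups, and did not pass the mark (−0.37 and −0.64). AIMP2 (hg19 chromosome 7, 6048882 to 6063465) is listed at 0 in both ATRA groups, against 41.7 FPKM in the vehicle group labelled shTFEB and 41.1 FPKM in shScr vehicle. Its single model shares 1588 bases with EIF2AK1, which had 51.9 and 44.4 FPKM with ATRA and 63.7 and 63.9 FPKM with vehicle. EEF1E1 (hg19 chromosome 6, 8073593 to 8102828) is listed at 0 in shTFEB ATRA, at 17.4 FPKM in shScr ATRA and at 0 in both vehicle groups. A read-through model, EEF1E1-BLOC1S5, covers the gene and had 11.6 FPKM in shTFEB ATRA, 6.63 FPKM in shScr ATRA and 0 in both vehicle groups.

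No fold is given for AIMP2 or EEF1E1, and their places among the members past the mark rest on values of 0. Such zeros were more frequent where loci overlap. Of 2853 compared genes whose locus overlaps another named locus, 256 were listed at 0 in a group (8.97%), against 61 of 8177 without such an overlap (0.746%). Among the members 12 loci overlap another, and the 2 with zeros are both among these 12. The remaining 26 members have no overlap and no zero. All 95 models of the 38 genes carry the status OK, the zeros included. Without the 2 genes, 1 member rose and 6 fell in shTFEB cells, and 1 rose and 8 fell in shScr cells.

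Of the other cytosolic enzymes none passed the mark with ATRA. GARS1 (glycyl, both compartments) had 59.2 and 61.5 FPKM in the ATRA groups of shTFEB and shScr cells and 106 and 116 FPKM in their vehicle groups, with ratios of −0.83 and −0.91. The ratios of YARS1 were −0.79 and −0.84, those of HARS1 −0.74 and −0.77, and those of NARS1 −0.48 and −0.65. VARS1 (−0.36 and −0.74) and TARS1 (−0.29 and −0.66) lay closer to 0 in shTFEB than in shScr cells. CARS1 (−0.43 and −0.25), SARS1 (−0.32 and −0.29) and AARS1 (−0.14 and −0.27) were the nearest to 0 of this group in shScr cells, and AARS1 in shTFEB cells. The 9 class II enzymes of the cytosol had a median of −0.56 in shTFEB and −0.77 in shScr cells, and the 9 class I enzymes −0.36 and −0.74. EPRS1 holds a domain of each class and was left out of both.

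The amino acid response element, searched as TGATGNAA on both strands, is found in the windows of 7 of the 16 cytosolic members with a window (AARS1, CARS1, GARS1, IARS1, MARS1, NARS1 and TARS1) and in 1 of 14 mitochondrial members, YARS2. It is found in 4.46% of the 27305 genes with a window and in 3.62% of windows. Of the 7 cytosolic genes with the letters, IARS1 fell with ATRA and the other 6 did not pass the mark. The stretches around 3 of the matches are shown as examples, in capitals, for the gene of this set that fell and for 2 that did not. They lie at chr16:70289662-70289717 on the minus strand (AARS1), chr7:30594821-30594876 on the plus strand (GARS1) and chr9:92293698-92293734 on the minus strand (IARS1), in GRCh38.p14 as given by RefSeq:
AARS1: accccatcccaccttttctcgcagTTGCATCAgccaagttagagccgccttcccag
GARS1: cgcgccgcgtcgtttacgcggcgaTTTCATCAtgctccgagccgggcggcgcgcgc
IARS1: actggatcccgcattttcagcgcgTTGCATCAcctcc

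Genes of the ATF4 and amino acid response moved in both directions. Of 17 compared genes 2 rose and 3 fell with ATRA in shTFEB cells (median −0.22), and 3 rose and 2 fell in shScr cells (median 0.06). Of all genes 11.5% rose and 10.5% fell in shTFEB cells, and 12.5% rose and 15.2% fell in shScr cells, so each count of the list lies within about 1 gene of the general share. ATF4 itself had 275 and 291 FPKM in the ATRA groups of shTFEB and shScr cells and 319 and 280 FPKM in their vehicle groups. TRIB3, a target of ATF4, fell in both lines (−1.40 and −1.49). ASNS, the asparagine synthetase gene, fell in shTFEB cells (−1.22) and lay at −0.99 in shScr cells, while CEBPB rose in both (3.11 and 3.30). Of the 14 compared amino acid transporter genes 2 rose and 5 fell in either line. The largest fall was that of SLC7A5, the light chain of the large neutral amino acid transporter, with 13.2 and 10.4 FPKM with ATRA and 118 and 97.0 FPKM with vehicle. SLC43A2 rose (2.03 and 1.64).

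Of the 16 mitochondrial synthetases none rose and 3 fell, the same 3 in both lines, which is 18.8% of them against 10.5% of all genes in shTFEB cells and 15.2% in shScr cells. NARS2, the asparaginyl enzyme, had 9.42 and 6.84 FPKM in the ATRA groups of shTFEB and shScr cells and 25.6 and 28.0 FPKM in their vehicle groups, with ratios of −1.35 and −1.89. EARS2, the glutamyl enzyme, had 4.32 and 3.06 FPKM with ATRA and 10.8 and 12.9 FPKM with vehicle (−1.16 and −1.77). MARS2, the methionyl enzyme, had 5.86 and 3.23 FPKM with ATRA and 14.0 and 11.9 FPKM with vehicle (−1.13 and −1.61). In each of the 3 genes both ATRA values lay below both vehicle values. The falls in shTFEB cells were near enough to the mark that EARS2 lost it under 3 alternatives and MARS2 under 2, their ratios then reaching −0.77 and −0.81.

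The other 13 mitochondrial enzymes stayed short of the mark, and most lay below 0. IARS2 had 31.9 and 26.4 FPKM in the ATRA groups of shTFEB and shScr cells and 52.0 and 50.4 FPKM in their vehicle groups (−0.69 and −0.90). YARS2 (−0.64 and −0.87), WARS2 (−0.53 and −0.76), PARS2 (−0.61 and −0.74), SARS2 (−0.62 and −0.73) and LARS2 (−0.42 and −0.73) followed. VARS2 was one of the few with the lower ratio in shTFEB cells (−0.74 and −0.49). FARS2, RARS2 and TARS2 lay between −0.26 and −0.52. AARS2 (−0.14 and −0.09), HARS2 (0.04 and 0.05) and CARS2 (0.24 and −0.02) stood closest to 0. HARS1 and HARS2, which lie head to head on hg19 chromosome 5 and share 302 bases, thus had different ratios, with HARS1 at 21.6 and 20.1 FPKM with ATRA and 36.8 and 34.9 FPKM with vehicle, and HARS2 between 15.6 and 16.9 FPKM in all 4 groups.

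The E-box CACGTG, the shared letters of the sites of MYC and of the TFEB family, was searched in the same windows. It is found in 5 of the 33 members with a window (AIMP2, CARS2, EARS2, IARS1 and MARS2) and in 7.26% of all windows or 8.78% of genes with a window. CARS2 did not pass the mark with ATRA, while EARS2, IARS1 and MARS2 fell and AIMP2 is listed at 0. The stretches of AIMP2 (chr7:6009466-6009519, plus strand), CARS2 (chr13:110706513-110706542, minus strand), EARS2 (chr16:23557351-23557389, minus strand) and MARS2 (chr2:197705334-197705368, plus strand) are shown with the E-box in capitals, since it begins within 75 bases before a start in each (GRCh38.p14, RefSeq):
AIMP2: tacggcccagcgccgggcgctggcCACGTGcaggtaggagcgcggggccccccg
CARS2: tgacgtgggctgtgctgggatgcaCACGTG
EARS2: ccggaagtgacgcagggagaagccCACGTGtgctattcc
MARS2: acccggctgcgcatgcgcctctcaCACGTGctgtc

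MYC had 54.6 FPKM in shTFEB ATRA, 25.6 FPKM in shScr ATRA, 270.5 FPKM in the vehicle group labelled shTFEB and 279 FPKM in shScr vehicle. Of the 10 genes of the MYC network MYC fell and its antagonist MXD1 rose in either line, and the other 8 stayed short of the mark. Of all genes 11.5% rose and 10.5% fell in shTFEB cells, and 12.5% rose and 15.2% fell in shScr cells. No binding was measured.

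Cytosolic and mitochondrial enzymes were then compared as sets. With ATRA the 19 cytosolic members had a median log2 ratio of −0.48 in shTFEB cells and −0.77 in shScr cells, and the 16 mitochondrial members −0.57 and −0.73. The cytosolic median thus lay 0.09 above the mitochondrial one in shTFEB cells and 0.04 below it in shScr cells, written −0.04 as cytosolic minus mitochondrial. Both differences are small beside the range of members within a set, and they turned sign or grew with the pseudocount: with 5 FPKM in place of 1 they were −0.16 in shTFEB and −0.25 in shScr cells. Without WARS1 the cytosolic medians were −0.52 and −0.80. The FPKM of the 18 cytosolic genes other than WARS1 summed to 846 and 727 in the ATRA groups of shTFEB and shScr cells and to 1271 and 1237 in their vehicle groups, a ratio of 0.665 and 0.588. The mitochondrial sums were 174 and 147 FPKM with ATRA and 254 and 249 FPKM with vehicle, a ratio of 0.684 and 0.588. With WARS1 the cytosolic ratios of sums were 0.814 and 0.717.

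Enzymes for the same amino acid gave 17 pairs of a cytosolic and a mitochondrial gene, in which EPRS1 and FARS2 each appear in 2 pairs. The cytosolic gene was the more abundant in 15 of 17 pairs in shTFEB ATRA and in 17 of 17 in the other 3 groups, the 2 exceptions being CARS1 with CARS2 (ratio 0.788) and IARS1 with IARS2 (0.893). The cytosolic gene had the lower ATRA ratio in 9 of 17 pairs in shTFEB cells and 11 of 17 in shScr cells. The pairs for 3 amino acids moved furthest. WARS1 stood 78.6-fold above WARS2 in shTFEB ATRA and 71.6-fold in shScr ATRA, against 12.1-fold and 9.58-fold in the vehicle groups. MARS1 stood 13.6-fold and 22.7-fold above MARS2 with ATRA, against 6.33-fold and 6.62-fold with vehicle. FARSB stood 3.07-fold and 1.54-fold above FARS2 with ATRA, against 6.42-fold and 6.02-fold with vehicle.

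Genes that act on the same tRNAs gave a wider view. Of 14 partners of mitochondrial tRNA charging, which mature, modify or correct those tRNAs, 4 fell with ATRA in shTFEB cells (median −0.66) and 6 in shScr cells (median −0.94), and none rose. These falls are 28.6% and 42.9% of the partners, against 10.5% and 15.2% of all genes. MTO1, a tRNA-modifying enzyme, fell in both lines (−1.23 and −1.30), as did HSD17B10 (−1.07 and −1.26) and ELAC2 (−1.12 and −1.26), which take part in cutting mitochondrial tRNAs from their precursors. The 3 subunits of the amidotransferase that makes mitochondrial glutaminyl-tRNA, QRSL1, GATB and GATC, stayed short of the mark.

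Of 26 compared genes of tRNA editing, modification and export, 10 fell in shTFEB cells and 11 in shScr cells. That is 38.5% and 42.3%, against 10.5% and 15.2% of all genes. PUS7, a pseudouridine synthase, had 6.97 and 4.10 FPKM in the ATRA groups of shTFEB and shScr cells and 25.1 and 26.6 FPKM in their vehicle groups. XPOT, the tRNA exporter, had 44.7 and 32.5 FPKM with ATRA and 105 and 106 FPKM with vehicle. CTU2 is listed at 0 in every group but shTFEB ATRA and was not read. Without CTU2, 25 genes were left, none of which rose, and the medians were −0.66 and −0.88.

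RNA polymerase III makes the tRNAs. Of 24 genes of its subunits and factors above 0 in every group, 3 fell in shTFEB cells and 6 in shScr cells, with medians of −0.46 and −0.59. These falls are 12.5% and 25% of the 24, against 10.5% and 15.2% of all genes. POLR3G fell furthest (−1.51 and −2.09), and its paralogue POLR3GL stood at 0.02 and 0.01. BRF1 is listed at 0 in 3 groups. Of 11 translation elongation factor genes above 0 in every group 2 fell in either line, with medians of −0.74 and −0.71, EIF5A falling in both (−1.23 and −1.69). That is 18.2% in either line, against 10.5% and 15.2% of all genes. EEF1A1 is marked in 3 groups as holding too many fragments for an estimate and was not read.

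**Figure D4:**
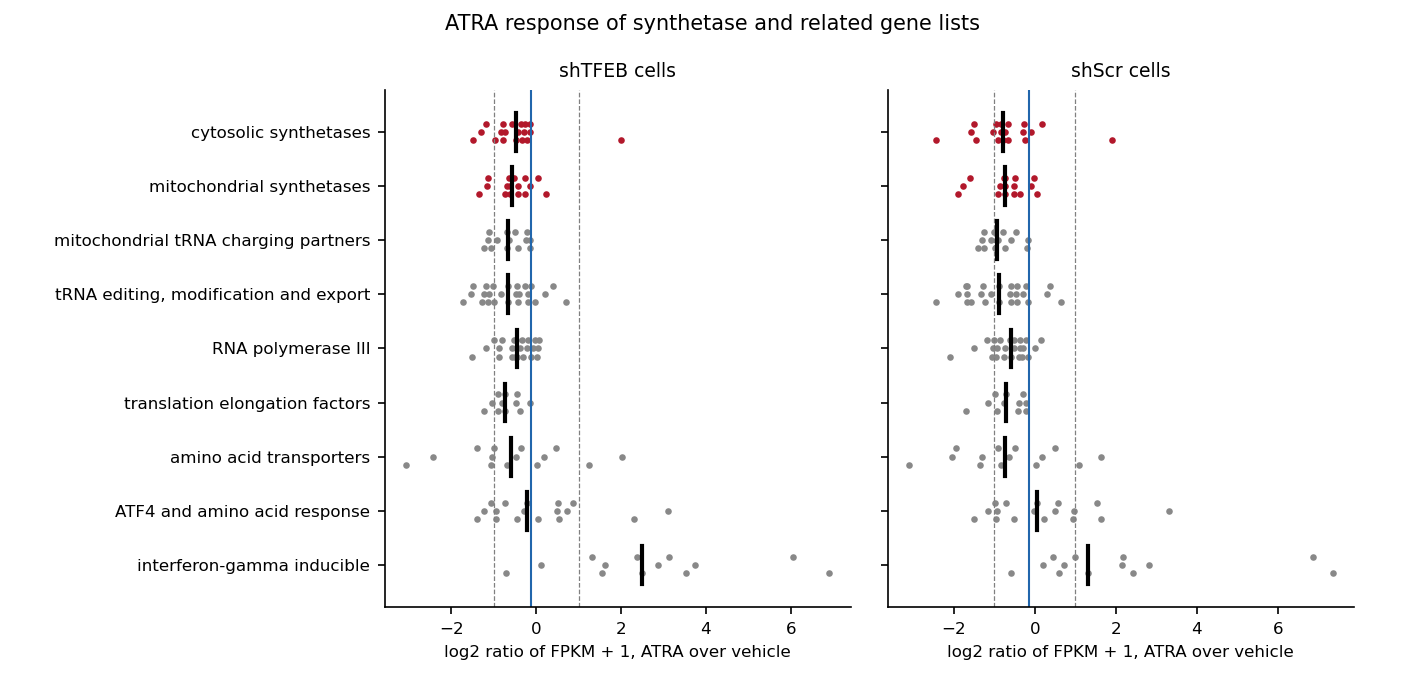
Log2 ratio of FPKM + 1, ATRA over vehicle, per gene of 9 lists, with shTFEB cells left and shScr cells right. Each point is a gene above 0 in every group, black bars are medians, dashed lines the 2-fold mark and the blue line the median of all genes (−0.13 and −0.15). The synthetase medians lie between −0.48 and −0.77, and the interferon-gamma list lies highest, at 2.50 and 1.31. That list includes GBP1, GBP4, GBP5 and SOCS1, which were compared only through shTFEB ATRA. Its other 9 genes had medians of 2.87 and 2.17.

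Between the ATRA groups most synthetase mRNAs stood slightly above in shTFEB cells. The log2 ratio of shTFEB over shScr was above 0 for 29 of 38 members under ATRA, where 58.9% of all genes were above 0, and the median was 0.14 beside 0.06 over all genes. Upper-quartile rescaling left 23 members above 0 and a median of 0.04, beside −0.02 over all genes. With median-of-ratios rescaling 28 members were above 0 and the median was 0.08, beside 0.01 over all genes. Past the mark were 1 higher member, FARSB, and 1 lower, EEF1E1 with its 0, against 2.67% of all genes higher and 1.58% lower. FARSB, at 16.5 FPKM in shTFEB ATRA and 7.67 FPKM in shScr ATRA, was 2.15-fold higher, a log2 ratio of 1.01 that is just inside the mark. It left the mark under both rescalings and with a pseudocount of 5 FPKM, down to 0.76.

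KARS1 (0.71), MARS2 (0.70), RARS1 (0.57) and FARSA (0.49) came next, none of them past the mark. RARS1 had 38.9 FPKM in shTFEB ATRA and 25.9 FPKM in shScr ATRA, against 46.6 and 46.8 FPKM in the vehicle groups. QARS1 stood lowest of the members above 0, with 64.9 FPKM in shTFEB ATRA and 80.9 FPKM in shScr ATRA (−0.31). The cytosolic median was 0.15 and the mitochondrial one 0.24. When EEF1E1 was summed with its read-through model, its ratio of −0.99 was outside the mark.

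**Figure D5:**
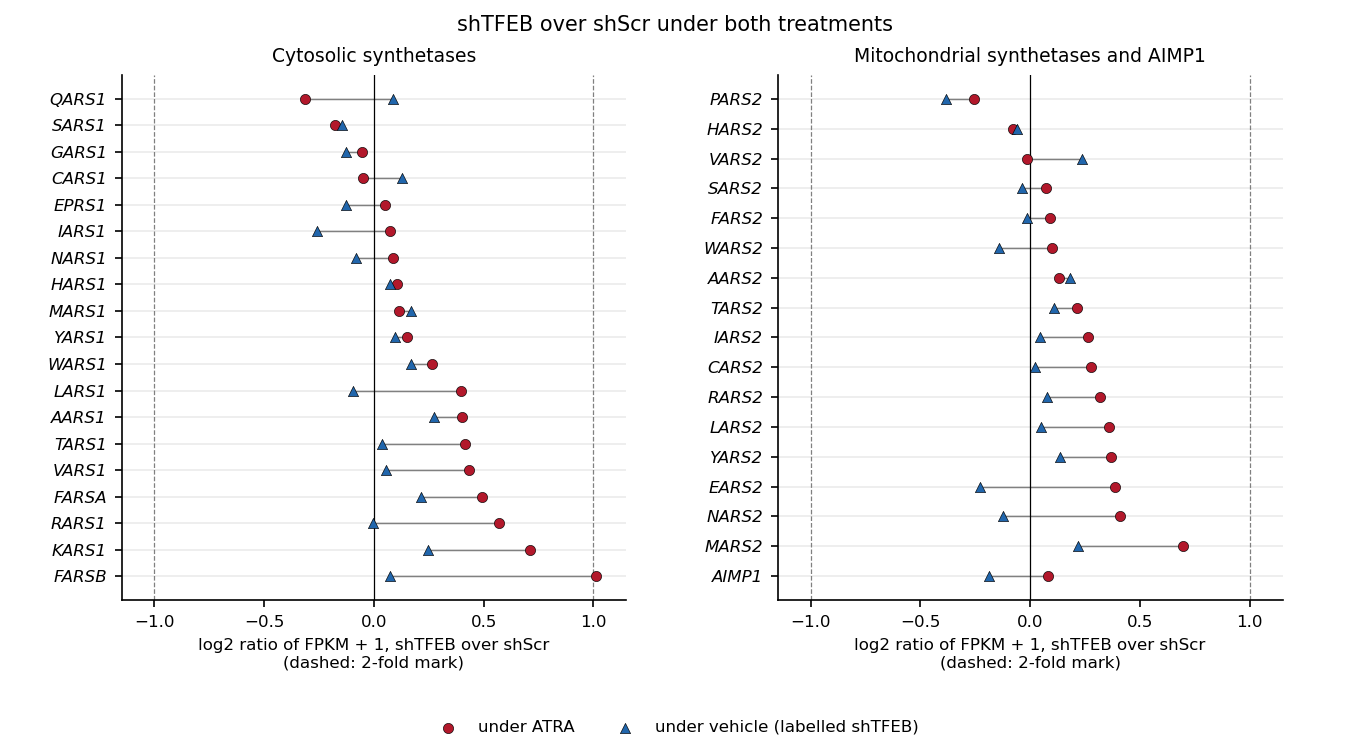
Log2 ratio of FPKM + 1, shTFEB over shScr, for the 36 members above 0 in every group, under ATRA as circles and under vehicle as triangles. Dashed lines show the 2-fold mark. Under ATRA FARSB reaches 1.01, and under vehicle the members lie within 0.4 of 0.

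Under vehicle the group labelled shTFEB and shScr cells held nearly the same synthetase levels. No member was past the mark in either direction, against 1.06% of all genes higher and 0.787% lower, and the median was 0.04 beside 0.02 over all genes. PARS2 stood lowest, with 3.27 FPKM in the group labelled shTFEB and 4.57 FPKM in shScr cells (−0.38). AARS1 stood highest, with 68.5 FPKM and 56.5 FPKM (0.27). TFEB mRNA was not lower in the group labelled shTFEB, as given above.

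The difference of the ATRA responses, shTFEB minus shScr, was above 0 for 29 of 38 members with a median of 0.18, beside 0.04 over all genes and 56.1% of them above 0. Upper-quartile rescaling left 25 members above 0 and a median of 0.07, beside −0.05 over all genes. With median-of-ratios rescaling 29 members were above 0 and the median was 0.14, beside 0.01 over all genes. EEF1E1 was the only member past the mark, lower and through its zeros, against 1.86% of all genes lower and 2.42% higher. FARSB came next at 0.94, followed by EARS2 (0.62), RARS1 (0.58), NARS2 (0.53) and LARS1 (0.49). WARS1 stood at 0.10, so its response was of like size in both lines. QARS1 (−0.40) and VARS2 (−0.25) were among the few below 0. This difference uses all 4 groups and shares its values with the comparisons above.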

How the data were processed

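RNA of 8 NB4 samples in 4 groups of 2 was sequenced by the authors, and groups were taken from the labels' description field, because the titles of both shScr ATRA samples also carry the word vehicle. The deposited FPKM were made by the authors with TopHat, Cufflinks and Cuffdiff on hg19, per the submitters' processing notes, and the versions are not given in the sources used here. Each group has 1 deposited table of 65986 models with 1 FPKM, 2 bounds and a status. How the samples of a group were combined is not stated. The deposited bounds enclosed the FPKM of 19 to 24 of the 36 or 37 members above 0, so they were not read as confidence intervals. Absolute depth is unknown.

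Symbols came from a RefSeq table of assembly GRCh38.p14 (39841 of 41159 RefSeq accessions matched, 96.8%), and hg19 coordinates, counted from 1, are those of the files. FPKM were summed per symbol (22627 symbols), genes averaging 1 FPKM or more across the groups were compared (11052), and log2((FPKM + 1)/(FPKM + 1)) of 1 in size was the 2-fold mark, with python 3.11.15, pandas 2.3.3 and numpy 2.4.6. No test was possible with 1 value per group. The members, the 17 gene lists and the marker lists were chosen with earlier results of these data known. Every member is accounted for. Those past the mark, listed at 0, or the most or least abundant of their compartment are given in full, and of each list up to 4 genes of large ratio. Certain list genes are not reported here. Some other list genes (ATF4, MYC, TAP1, POLR3GL and the amidotransferase subunits) were named after their values were seen. DNMT2, an older symbol on a list, had no match. Settings varied were the pseudocount (0.1 and 5 FPKM), no filter, a mean of at least 5 FPKM, 2 rescalings, the highest model, status OK alone, bounds apart, and zeros left out. Coding models alone, and EEF1E1 summed with its read-through model, were added after seeing the data. The calculation was tested on simulated counts with Poisson noise and no added spread between samples, so that test does not bear on replicate spread.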

Additional observations from a re-analysis of the deposited data

How the results depend on the processing

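No paired analysis was possible because each deposited table holds 1 value per group and none per replicate, and for the same reason no replicate could be left out. The number of members past the mark between the ATRA groups, 2 as reported, was 1 with a pseudocount of 5 FPKM, a mean of at least 5 FPKM, either rescaling, zeros left out, or the read-through model added to EEF1E1. For the difference of the responses, 1 as reported, it was 2 with a pseudocount of 0.1 FPKM (FARSB added), and 0 with a mean of at least 5 FPKM, zeros left out, or the read-through model added. The cytosolic minus mitochondrial median in shScr cells, −0.04 as reported, was −0.25 with a pseudocount of 5 FPKM and −0.15 with a mean of at least 5 FPKM. In shTFEB cells, 0.09 as reported, it was −0.16 with a pseudocount of 5 FPKM. The cause of these shifts was not tested. The counts for ATRA against vehicle and for the vehicle groups stayed within 1.5 times the reported ones under every alternative run. Of the single members, WARS1, FARSA, FARSB, IARS1 and NARS2 kept the mark with ATRA in both lines under all 12 alternatives, WARS1 between 1.49 and 2.16. Several of these alternatives could not change the ratios of these genes. They are no filter, a mean of at least 5 FPKM, status OK alone, coding models alone, zeros left out and the read-through sum. For FARSA and FARSB, with 1 model each, the highest model could not change them either. Bounds apart rests on bounds that were not read as confidence intervals. Without replicate values, the size of the spread between samples is unknown and limits every value here.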

Other observations

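Values beside the members that belong to no comparison are given here without explanation. DDIT3, an ATF4-linked stress gene whose locus shares 68 bases with MARS1 on hg19 chromosome 12, is listed at 0 in all 4 groups. SCARNA27, a small RNA of 126 bases inside EEF1E1, had 55.7 FPKM in shTFEB ATRA, 40.8 FPKM in shScr ATRA, 107 FPKM in the vehicle group labelled shTFEB and 117 FPKM in shScr vehicle, although its host is listed at 0 in 3 of these groups. BLOC1S5, the other gene joined in the read-through model of EEF1E1, is listed at 0 in all 4. MRPS12, a mitochondrial ribosomal protein gene that shares 189 bases with SARS2, had 14.1 and 7.35 FPKM in the ATRA groups of shTFEB and shScr cells and 24.4 and 21.9 FPKM in their vehicle groups. The models of TARS1 and NARS2 kept their shares: the larger TARS1 model held 51.1% to 52.8% of the gene and the larger NARS2 model 60.7% to 65.2% over the 4 groups. VARS2 did not, since 1 of its 3 models held 61.2% and 74.6% in the ATRA groups of shTFEB and shScr cells and 39.2% and 48.6% in their vehicle groups.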
